A study of Mus musculus with 25 samples.

Results

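Gene expression in the lungs of food-restricted mice at 12 h after the onset of restriction was set against that at 2 h, through all non-control probe sets of 4 Affymetrix MG-U74Av2 arrays, chosen by their titles out of 24 arrays of this design and 25 samples in the series. The mice were of the inbred strain C57BL/6, and the tissue was whole lung. The groups used here were calorie restriction (CR, food reduced by 2/3) at 12 h, CR at 2 h, fed controls at 12 h, at 2 h and at 0 h carrying the number 1, with 2 arrays each, a and b. The labels tie the study to the loss of gas-exchange surface in the lung under restriction, and do not state sex, age, light cycle or clock time. They call the controls always fed but also carry the words of the reduction, so the feeding of the controls is not certain, and they do not say whether a and b were different animals, pools or repeat arrays of 1 RNA. The p-values therefore measure only the spread between these arrays, which may be technical. Between 2 h and 12 h of restriction the hour of the day also moves on by the same amount, and within the CR arrays time under restriction and time of day cannot be told apart. The fed arrays of the same labelled hours show what moved in lungs read as unrestricted.

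Several processes with a known daily course bear on this pair of times. In mammalian cells the proteins CLOCK and ARNTL (BMAL1) activate the Per and Cry genes through E-box sequences, PER and CRY proteins later restrain that activation, and the repressor NR1D1 (REV-ERB alpha) acts on Arntl. Glucocorticoid hormones, body temperature and the number of leukocytes in blood also vary over the day and with feeding. Heat shock proteins are chaperones whose genes respond to temperature, and glucocorticoids raise genes such as Fkbp5 and Per1 through their receptor.

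The 4 CR arrays were alike in brightness. Deposited medians were 328 and 322 in CR 12 h and 318 and 313 in CR 2 h, and the 2 arrays of a group correlated at r = 0.949 in CR 12 h and 0.958 in CR 2 h across probe sets. The correlation between a CR 12 h and a CR 2 h array was 0.911 to 0.929. Array b of CR 12 h correlated better with array a of fed 12 h (0.954) than with its own partner. The ratio of 3′ to 5′ actin probe sets, a sign of RNA integrity, was 1.91 and 2.04 in CR 12 h, against 1.58 and 1.68 in CR 2 h, and the same ratio for Gapdh was 1.12 and 1.21 in CR 12 h, against 1.14 and 1.56 in CR 2 h. The highest signal of an array was 81421 and 99043 in CR 12 h, 76226 and 78841 in CR 2 h and 87542 and 98445 in fed 12 h, but 40914 and 47510 in fed 2 h, so the fed pair, unlike the CR pair, straddled a difference in signal range. Markers of lung were bright on all 4: 13 genes of surfactant and alveolar type II cells summed to a scaled signal of 190671 to 208352 in CR 12 h and 189827 to 191810 in CR 2 h.

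At 12 h of restriction, clock genes (Per1, Per2, Cry1), glucocorticoid-responsive genes led by Fkbp5, heat shock genes and a few genes of lipid use were higher than at 2 h, and genes of B cells and macrophages were lower. Values are scaled signal on 1 scale for all arrays, folds are ratios of geometric means, and a probe set was called when limma's Benjamini-Hochberg adjusted p over all probe sets tested was under 0.05. Of 7440 probe sets tested, 137 were called, or 1.84%. Of these, 80 were higher in CR 12 h (1.08%) and 57 were lower (0.766%), and 1176 had an unadjusted p under 0.05. The called changes measured 0.59 to 2.57 on the log2 scale. In all 137 both CR 12 h arrays lay on the same side of both CR 2 h arrays, which was also so for 1758 of the 7440 upwards (23.6%) and 2305 downwards (31.0%). For 14 of the 137 a group reached the floor of the measurable range, a signal of 80.4, on at least 1 array, so their fold is given as a lower bound.

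The size of that list rested heavily on single arrays and on the estimate of spread. Without array a of CR 12 h 10 probe sets were called, without array b of CR 12 h 55, without array a of CR 2 h 10 and without array b of CR 2 h 15. Only 6 of the 137 kept their call without each of the 4 arrays in turn: those of Fkbp5, Ddit4, Herpud1, Pax5 and Rac2, and 1 with no single gene symbol (log2 change 2.08). Every other gene named below as risen or fallen lost its call when at least 1 of the 4 arrays was left out. The common estimate of spread includes the difference between the pairs of fed 0 h arrays with different numbers. With these numbers as separate groups, a setting chosen after seeing the data, 781 probe sets were called (10.5%), 329 higher and 452 lower, and these held all 137.

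Of the clock loop, the inhibitory genes Per1, Per2 and Cry1 rose, and so did the output genes Tef and Usp2. The bases before the starts of Cry1, Per1 and Tef are shown because E-boxes, the sequences through which the loop acts, can be read in them. Per2 was not searched. The 250 bases before the RefSeq start (GRCm38.p6) were searched on both strands for CACGTG (E-box, in 6.02% of 32851 promoters), CACGTT (a variant E-box, in 3.85%) and AGGTCA (bound by ROR and NR1D factors, in 14.0%). In Cry1, at chr10:85185055-85185304 on the minus strand, CACGTG stood 60 bases and the variant, in its other-strand form, 79 bases before the start. In Per1, at chr11:69098699-69098948 on the plus strand, CACGTG stood 166 bases and AGGTCA, on the other strand, 137 bases before the first of its starts, while the second start had none of the 3. In Tef, at chr15:81802423-81802672 on the plus strand, CACGTG stood 127 bases before the first start. Before the second start of Tef (chr15:81811164-81811413, not shown) it stood at 138 bases. Usp2 had none in this window. These matches describe letters in a window and are no evidence of binding here. The sequences run 5′ to 3′ on the strand of the gene, with the matches in capitals:
Cry1: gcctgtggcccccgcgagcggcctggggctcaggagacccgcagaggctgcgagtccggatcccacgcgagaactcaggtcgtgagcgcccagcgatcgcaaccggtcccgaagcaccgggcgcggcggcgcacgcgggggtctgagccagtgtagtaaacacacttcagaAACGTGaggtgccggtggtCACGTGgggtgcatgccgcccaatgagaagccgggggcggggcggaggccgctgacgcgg
Per1: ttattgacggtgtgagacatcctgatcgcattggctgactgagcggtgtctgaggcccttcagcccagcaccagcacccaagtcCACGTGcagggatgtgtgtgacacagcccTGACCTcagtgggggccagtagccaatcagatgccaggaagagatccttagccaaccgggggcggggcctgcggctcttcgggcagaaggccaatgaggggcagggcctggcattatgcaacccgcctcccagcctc
Tef: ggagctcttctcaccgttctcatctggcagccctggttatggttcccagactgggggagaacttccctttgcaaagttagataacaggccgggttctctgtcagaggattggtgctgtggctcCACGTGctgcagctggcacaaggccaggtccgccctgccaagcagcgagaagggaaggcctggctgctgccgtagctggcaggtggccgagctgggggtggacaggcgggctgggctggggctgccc

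Per1, an inhibitor of the loop that glucocorticoids also raise, measured 1486 and 1179 in CR 12 h, against 300 and 436 in CR 2 h. It was 3.66-fold higher (log2 1.87, 95% interval 1.22 to 2.52, adjusted p = 0.00601). In fed lungs it measured 1064 and 795 at 12 h and 492 and 465 at 2 h. Per2 measured 398 and 491 in CR 12 h, against 114 and 61.2 in CR 2 h, where array b was under the floor. Both CR 12 h arrays lay above both CR 2 h arrays, and the ratio of the group means was at least 4.61 (adjusted p = 0.0126). Cry1, a repressor of CLOCK and ARNTL, measured 2342 and 1941 in CR 12 h, against 865 and 814 in CR 2 h, 2.54-fold higher (adjusted p = 0.00465). It was called in the fed pair as well, with 1761 and 2426 at 12 h and 842 and 630 at 2 h, so the groups did not overlap in either diet. The Cry1 probe set, like others here whose names end in _f_at, _s_at or _g_at, is not unique to 1 sequence. Probe sets ending in _i_at may not be unique either.

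Tef, a clock output factor of the same family as Dbp, measured 5306 and 5188 in CR 12 h, against 1661 and 2007 in CR 2 h, 2.87-fold higher (adjusted p = 0.0187). Usp2, a deubiquitinase with a daily rhythm in many tissues, rose 4.38-fold on 1 probe set, 904 and 781 in CR 12 h against 180 and 205 in CR 2 h (adjusted p = 0.0156). Its brighter probe set, 1313 and 1011 in CR 12 h against 58.8 and 287 in CR 2 h, did not pass (adjusted p = 0.064). A further 3 clock genes, Nr1d1, Arntl and Dbp, lay lower without passing. Nr1d1 measured 537 and 674 in CR 12 h, against 1199 and 2192 in CR 2 h (log2 -1.43, adjusted p = 0.0555). Arntl measured 239 and 299 in CR 12 h, against 443 and 467 in CR 2 h (log2 -0.77, adjusted p = 0.127). Dbp, usually in step with Tef, measured 99.8 and 222 in CR 12 h, against 439 and 359 in CR 2 h (log2 -1.42, adjusted p = 0.0695). In these 3 genes the CR groups did not overlap, but both CR 12 h arrays also lay below both CR 2 h arrays in 31.0% of all 7440 probe sets. In fed lungs Nr1d1 gave a log2 change of -0.61, Arntl of -0.95 and Dbp of 0.16.

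**Figure D1:**
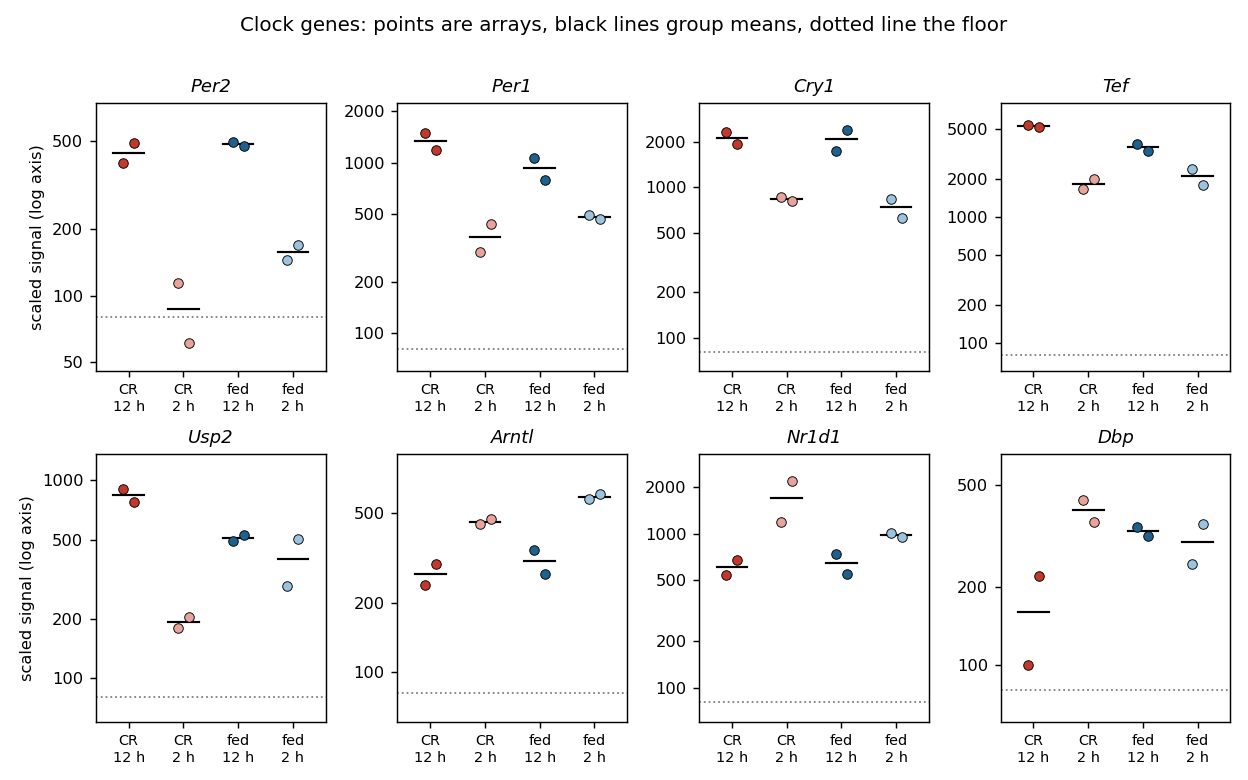
Scaled signal (log axis) of 8 clock and clock output genes on each array of CR 12 h, CR 2 h, fed 12 h and fed 2 h, with points for arrays, black lines for group means and a dotted line at the floor of 80.4. Per2, Per1, Cry1, Tef and Usp2 lie higher in CR 12 h than in CR 2 h, while Arntl, Nr1d1 and Dbp lie lower without passing the test.

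Of the 10 core clock genes measured, 3 rose (30.0%, beside 1.03% of all genes) and 0 fell, and their median log2 change was 0.52 in CR and 0.37 in fed lungs, beside -0.05 and 0.00 over 5706 genes. The others that did not pass were Cry2 (log2 0.63), Rora (0.56), Per3 (0.49), Nr1d2 (0.44) and Clock (-0.19). Of 14 output and modifier genes, 1, Tef, rose on its brightest probe set and 0 fell. Wee1, a mitotic kinase with E-boxes known to answer to the clock, measured 446 and 610 in CR 12 h, against 168 and 178 in CR 2 h (log2 1.59, adjusted p = 0.118). Tspan4 had a log2 change of 0.56, and Btrc (0.23), Csnk1d (0.21), Nampt (0.11), Csnk1e (0.00), Nono (-0.01), Bhlhe40 (-0.03), Nfil3 (-0.04), Timeless (-0.08) and Rbm4b (-0.30) lay nearer to 0. Another probe set of Nfil3 gave -0.59 in CR and 0.60 in fed lungs. None of these passed.

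Genes of the glucocorticoid response formed the group with most called members. Of 29 measured, 11 rose (37.9%, beside 1.03% of all genes) and 1 fell, and 24 had a log2 change above 0. The median change was 0.76 in CR and 0.09 in fed lungs. The 29 genes summed to 91643 to 91771 in CR 12 h and 56702 to 60737 in CR 2 h, and to 59420 to 61958 in fed 12 h and 52527 to 57699 in fed 2 h. CR 12 h thus stood above the other 3 groups in this sum. Per1 is also counted among the clock genes, Angptl4 and Pdk4 among those of lipid use and Ddit4 among FOXO targets. The 11 calls depended on each array: 2 rose without array a of CR 12 h, 4 without array b of CR 12 h, 3 without array a of CR 2 h and 3 without array b of CR 2 h.

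Fkbp5, an HSP90 co-chaperone that restrains the glucocorticoid receptor, measured 4178 and 4382 in CR 12 h, against 717 and 889 in CR 2 h. It was 5.36-fold higher (log2 2.42, 95% interval 1.85 to 2.99, adjusted p = 0.000177). Fed lungs had 1538 and 1522 at 12 h and 1050 and 908 at 2 h, so CR 12 h lay above every other array of the 4 groups. Ddit4, an inhibitor of the growth kinase complex mTORC1, measured 2414 and 2469 in CR 12 h, against 954 and 854 in CR 2 h, 2.70-fold higher (adjusted p = 0.000718). Its fed values, 1032 and 1106 at 12 h and 876 and 894 at 2 h, lay below both CR 12 h arrays. Errfi1, an inhibitor of the EGF receptor, rose 1.95-fold, with 7000 and 6614 in CR 12 h against 3802 and 3217 in CR 2 h (adjusted p = 0.0088). Map3k6, a stress kinase, rose 4.36-fold (adjusted p = 0.013), with 1837 and 1829 in CR 12 h against 442 and 399 in CR 2 h. Gadd45g, a stress-induced growth inhibitor, rose 3.04-fold (adjusted p = 0.0171), with a log2 change of 1.60 in CR and 0.50 in fed lungs.

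The transcription factor Cebpd rose 1.89-fold, the NF-kappaB inhibitor Nfkbia 1.78-fold and the metal-binding Mt1 1.90-fold (adjusted p = 0.0158, 0.0228 and 0.03). The log2 change of Nfkbia was 0.83 in CR and 0.68 in fed lungs. Zbtb16, a transcription factor that glucocorticoids induce in many cells, measured 8224 and 6579 in CR 12 h, against 1564 and 2550 in CR 2 h, without passing (log2 1.88, adjusted p = 0.0776). Its fed values were 2582 and 2463 at 12 h and 2129 and 2614 at 2 h. Sgk1, another classic target, had a log2 change of -0.07 (adjusted p = 0.925). Rgs2, a brake on G protein signalling, was the member that fell, 2.93-fold, with 451 and 463 in CR 12 h against 1258 and 1428 in CR 2 h (adjusted p = 0.0126). Rgs2 had a log2 change of -1.08 in fed lungs.

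Chaperone genes were also higher at 12 h. Of 21 heat shock and cold-inducible genes measured, 4 rose (19.0%, beside 1.03% of all genes) and 0 fell, with a median log2 change of 0.45 in CR and 0.65 in fed lungs. Their sum was 53427 to 55422 in CR 12 h against 44031 to 44149 in CR 2 h, and 62255 to 65367 in fed 12 h against 41547 to 49082 in fed 2 h. Leaving out any 1 of the 4 CR arrays left 0 of the 4 calls, and with the letter as a replicate block 1 remained. Hspa1b, an inducible chaperone of the HSP70 family, measured 1026 and 925 in CR 12 h, against 204 and 230 in CR 2 h, 4.50-fold higher (adjusted p = 0.013). Its neighbour Hspa1a, whose near-identical sequence may share signal with it, measured 1481 and 965 in CR 12 h, against 360 and 345 in CR 2 h, 3.39-fold higher (adjusted p = 0.0489). Hsph1, a nucleotide exchange factor for HSP70, measured 2174 and 2052 in CR 12 h, against 898 and 881 in CR 2 h, 2.37-fold higher (adjusted p = 0.0467). Both arrays at 12 h lay above both at 2 h in all 3 genes and in both diets.

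The heat shock factor binds inverted repeats of GAA, and the promoters of the genes with the larger rises are shown for that reason. The search was chosen after the values were seen, for GAANNTTC (in 6.69% of promoters) and TTCNNGAA (in 7.17%). The first stood 104 bases before the start of Hspa1b (chr17:34959239-34959488, minus strand) and equally 104 bases before that of Hspa1a (chr17:34972157-34972406, minus strand), where 247 of the 250 bases were equal to those of Hspa1b. The second stood 33 bases before the first start of Hsph1 (chr5:149636337-149636586, minus strand). Matches are in capitals:
Hspa1b: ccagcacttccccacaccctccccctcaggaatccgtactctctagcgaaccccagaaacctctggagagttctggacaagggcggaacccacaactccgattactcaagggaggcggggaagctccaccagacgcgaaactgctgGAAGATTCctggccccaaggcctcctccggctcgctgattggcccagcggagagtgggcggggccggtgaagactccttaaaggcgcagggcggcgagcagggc
Hsph1: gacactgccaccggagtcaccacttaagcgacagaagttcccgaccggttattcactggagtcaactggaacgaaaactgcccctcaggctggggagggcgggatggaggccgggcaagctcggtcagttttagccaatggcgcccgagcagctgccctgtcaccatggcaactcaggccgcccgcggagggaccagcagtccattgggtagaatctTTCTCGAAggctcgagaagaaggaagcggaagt

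Dnajb1, an HSP40 partner of HSP70, rose 1.56-fold, with 1182 and 1435 in CR 12 h against 801 and 867 in CR 2 h (adjusted p = 0.0497), and was called in fed lungs too, with a log2 change of 1.21. Chordc1, an HSP90 co-chaperone, rose 2.02-fold on 1 probe set (adjusted p = 0.00909) and did not pass on its brighter one (log2 0.59, adjusted p = 0.248). Cirbp, an RNA-binding protein induced by mild cold, measured 1376 and 1450 in CR 12 h, against 2108 and 1932 in CR 2 h. That log2 difference of -0.51 did not pass (adjusted p = 0.163), and in fed lungs it was -0.83.

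Some genes of lipid and fuel use were called. Of 22 fatty acid oxidation and PPAR target genes measured, 3 rose (13.6%, beside 1.03% of all genes) and 0 fell. The median log2 change of the 22 was -0.01 in CR and -0.10 in fed lungs. Lpl, the lipase that frees fatty acids from circulating triglyceride, measured 3112 and 2944 in CR 12 h, against 1049 and 1458 in CR 2 h, 2.45-fold higher (adjusted p = 0.00174). In fed lungs it measured 1595 and 1389 at 12 h and 2021 and 1671 at 2 h, a log2 change of -0.30. Angptl4, an inhibitor of that lipase, measured 1838 and 2061 in CR 12 h, against 943 and 930 in CR 2 h, 2.08-fold higher (adjusted p = 0.0138), with a fed log2 change of -0.48. Another probe set of Angptl4 did not pass, with a log2 change of 0.53 in CR and -0.59 in fed lungs. Pdk4, the kinase that shuts pyruvate out of oxidation, measured 748 and 860 in CR 12 h, against 363 and 301 in CR 2 h, 2.43-fold higher (adjusted p = 0.0267). On their called probe sets, Lpl, Angptl4 and Pdk4 had their highest values of the 4 groups in CR 12 h. Scd1, a lipogenic desaturase, fell 1.69-fold (adjusted p = 0.029), the single call among 16 fat cell and lipogenesis genes (6.25%, beside 0.806% of all genes).

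**Figure D2:**
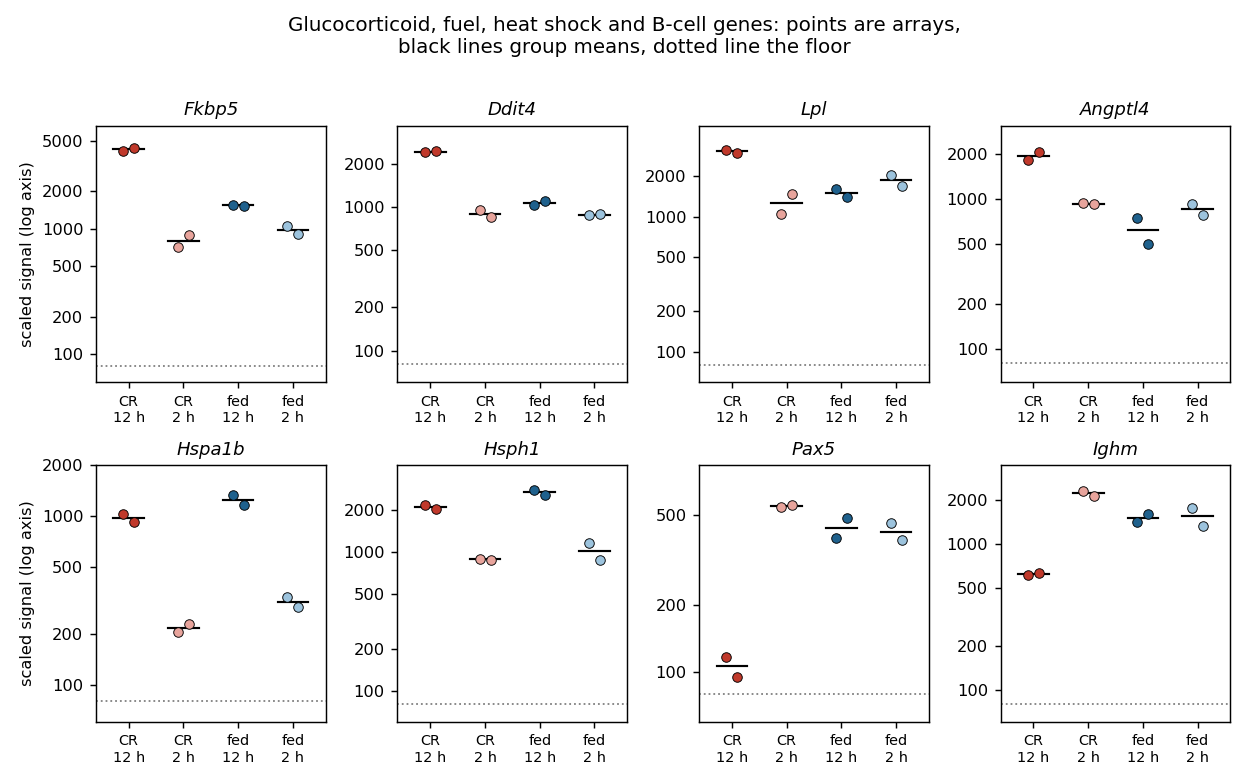
Scaled signal (log axis) per array of 8 genes in CR 12 h, CR 2 h, fed 12 h and fed 2 h, with points for arrays, black lines for group means and a dotted line at the floor of 80.4. Fkbp5, Ddit4, Lpl and Angptl4 stand highest in CR 12 h, Hspa1b and Hsph1 are higher at 12 h in both diets, and Pax5 and Ighm are lowest in CR 12 h.

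Other regulators rose as well. Foxo3, a transcription factor held in check by insulin signalling, measured 4500 and 3518 in CR 12 h, against 1314 and 1312 in CR 2 h, 3.03-fold higher (adjusted p = 0.0224). In fed lungs it gave a log2 change of 0.03. Notch1, a cell-fate receptor, measured 1941 and 2281 in CR 12 h, against 836 and 870 in CR 2 h, 2.47-fold higher (adjusted p = 0.0467). Foxo3 and Ddit4 were the 2 that rose of 26 genes of the FOXO, atrophy and autophagy list (7.69%, beside 1.03% of all genes). Notch1 was the 1 that rose of 29 genes of alveologenesis, retinoid and Notch signalling (3.45%). In either list 0 fell. Herpud1, a part of the machinery that clears misfolded proteins from the endoplasmic reticulum, measured 5335 and 5117 in CR 12 h, against 2318 and 2318 in CR 2 h, 2.25-fold higher (adjusted p = 0.00108). It was the 1 riser of 23 genes of the unfolded protein and amino acid response (4.35%). Bcl2l1, an inhibitor of cell death, was the 1 of 27 apoptosis regulators (3.70%), at 2.13-fold (adjusted p = 0.00909). Ccn2, a matricellular growth factor, was the 1 of 24 immediate early genes (4.17%), at 2.10-fold (adjusted p = 0.0194).

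Structural, vascular and enzyme lists held single called genes. Of matrix genes 2.78% rose, of endothelial 6.90%, of protease and inhibitor genes 3.70%, of antioxidant and xenobiotic 7.32% and of airway 16.7%. Shares that fell were 2.78% of matrix, 3.45% of endothelial and 3.70% of protease and inhibitor genes. Over all genes 1.03% rose and 0.806% fell. Hspg2, which encodes the basement membrane proteoglycan perlecan, had the largest called rise, 1005 and 947 in CR 12 h against 159 and 183 in CR 2 h, 5.72-fold (adjusted p = 0.0467). It was the 1 riser of 36 elastic fibre, collagen and matrix genes, and Col3a1, a fibrillar collagen, the 1 that fell, 1.56-fold (adjusted p = 0.0367). Col3a1 had a log2 change of -0.73 in fed lungs. Another probe set of Col3a1 did not pass, with a log2 change of -0.16 in CR and -0.36 in fed lungs. The median of the 36 was 0.38 in CR and -0.09 in fed lungs, 25 had a CR change above 0, and in 19 both CR 12 h arrays lay above both CR 2 h arrays (52.8%, beside 23.4% of all genes). With the fed 0 h numbers as separate groups 11 of the 36 rose and 1 fell. Of 29 endothelial genes, Lyve1, a hyaluronan receptor of lymphatic vessels, rose 2.30-fold and the anticoagulant receptor Thbd 1.81-fold, while the sialomucin Emcn fell 1.77-fold (adjusted p = 0.00909, 0.0324 and 0.0467). Of 27 matrix proteases and inhibitors, Timp3 rose 1.82-fold (adjusted p = 0.0421) and the cathepsin Ctsz fell 1.67-fold (adjusted p = 0.0342). Of 41 antioxidant and xenobiotic enzymes, 3 rose on their brightest probe sets, Cyp2b10 by 2.51-fold, Cyp2e1 by 2.32-fold and Gsta3 by 2.00-fold (adjusted p = 0.0212, 0.04 and 0.0117). Cyp2b10 and Gsta3 were also the 2 risers of 12 airway cell genes. The carboxylesterase Ces1d rose 1.74-fold on another of its probe sets (adjusted p = 0.0205) and was called in fed lungs.

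A further 5 of the largest rises came from dim probe sets. Against CR 2 h, CR 12 h was at least 4.29-fold higher for Atp7b, a copper pump, at least 3.85-fold for Inpp5d, a phosphatase of blood cells, and at least 3.81-fold for Lonp1, a mitochondrial protease (adjusted p = 0.0467, 0.0292 and 0.0365). The DNA repair scaffold Xrcc1 rose 4.28-fold (adjusted p = 0.02) and the ubiquitin ligase adaptor Spsb1 3.59-fold (adjusted p = 0.0494). Second probe sets of Xrcc1 (log2 0.58, adjusted p = 0.653) and Inpp5d (0.72, adjusted p = 0.57) did not pass, whereas that of Spsb1 did.

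Genes of B cells were lower after 12 h of restriction than after 2 h. Of 19 measured, 4 fell (21.1%, beside 0.806% of all genes) and 0 rose, 18 had a log2 change below 0 (94.7%, beside 54.9% of all genes), and in 14 both CR 12 h arrays lay below both CR 2 h arrays (73.7%, beside 32.1%). The median log2 change was -0.93 in CR and -0.16 in fed lungs. The 19 genes summed to 18757 to 18874 in CR 12 h and 31202 to 32119 in CR 2 h, and to 23277 to 26485 in fed 12 h and 24566 to 28855 in fed 2 h. CR 2 h was thus the highest and CR 12 h the lowest of the 4 groups. In whole lung, fewer cells of a type and less RNA per cell cannot be told apart. Of the 4 calls, 1 remained without array a of CR 12 h, 2 without array b of CR 12 h, 1 without array a of CR 2 h and 1 without array b of CR 2 h.

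Pax5, the transcription factor of B cell identity, measured 117 and 95.4 in CR 12 h, against 548 and 557 in CR 2 h. It fell 5.22-fold (log2 -2.38, 95% interval -3.01 to -1.76, adjusted p = 0.000339). In fed lungs it measured 395 and 487 at 12 h and 461 and 387 at 2 h, so CR 12 h lay below all other arrays of the 4 groups. Cd79b, a signalling chain of the B cell receptor, measured 475 and 593 in CR 12 h, against 2167 and 2556 in CR 2 h, and fell 4.43-fold (adjusted p = 0.0387). Fcer2a, the low-affinity IgE receptor CD23, was under the floor on 1 CR 12 h array, with 31.7 and 131 in CR 12 h against 463 and 490 in CR 2 h, a fall of at least 4.65-fold (adjusted p = 0.0297). Ltb, a lymphotoxin of lymphocytes, fell 3.79-fold (adjusted p = 0.04). The partner chain Cd79a measured 644 and 777 in CR 12 h, against 1932 and 2651 in CR 2 h, without passing (log2 -1.68, adjusted p = 0.0598), and Ms4a1, which encodes CD20, had a log2 change of -1.64 (adjusted p = 0.116).

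Immunoglobulin probe sets went the same way where they passed. For Ighm, the IgM heavy chain, 1 probe set measured 609 and 631 in CR 12 h, against 2312 and 2153 in CR 2 h, and fell 3.60-fold (adjusted p = 0.0126). The fed values were 1422 and 1620 at 12 h and 1783 and 1331 at 2 h. The other 3 Ighm probe sets did not pass, with log2 changes of -0.77, -0.49 and 1.19, the last of opposite sign. The variable gene Ighv14-2 was lower by at least 5.93-fold (adjusted p = 0.02) and Igkv6-14 by at least 4.71-fold (adjusted p = 0.0382), both with CR 12 h arrays under the floor. Variable genes resemble each other, so these signals may come from several of them.

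Of 21 macrophage genes, 2 fell (9.52%, beside 0.806% of all genes) and 0 rose. A log2 change below 0 was found in 19 (90.5%, beside 54.9%), and in 16 both CR 12 h arrays lay below both CR 2 h arrays (76.2%, beside 32.1%). The median was -0.83 in CR and -0.35 in fed lungs, and the sum 46988 to 49603 in CR 12 h against 80517 to 81607 in CR 2 h, and 51948 to 67281 in fed 12 h against 63944 to 76585 in fed 2 h. Cd68, a lysosomal glycoprotein of macrophages, measured 740 and 750 in CR 12 h, against 2020 and 1641 in CR 2 h, and fell 2.44-fold (adjusted p = 0.0387). Its fed values, 789 and 1154 at 12 h against 1492 and 1938 at 2 h, did not overlap either. Lgals3, the lectin galectin-3, fell 1.97-fold, with 1591 and 1561 in CR 12 h against 3342 and 2895 in CR 2 h (adjusted p = 0.0387). Without any 1 of the 4 CR arrays 0 of the 2 calls remained, and so it was with the letter as a replicate block.

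Neutrophil genes had the largest single differences but no call. Of 15 measured, 0 rose and 0 fell, the median was -0.55 in CR and -0.14 in fed lungs, and the sum was 36542 to 40726 in CR 12 h against 61337 to 62640 in CR 2 h. S100a8, a calcium-binding alarmin of neutrophils, measured 354 and 302 in CR 12 h, against 2937 and 3091 in CR 2 h (log2 -3.20, adjusted p = 0.0841). S100a9, its partner, measured 51.6 and 168 in CR 12 h, against 791 and 784 in CR 2 h. With 1 CR 12 h array under the floor, its log2 change was at most -2.76 (adjusted p = 0.126). Both were also lower at 12 h in fed lungs, by log2 changes of -1.58 and -1.71. Of 11 T cell genes 1 fell (9.09%, beside 0.806% of all genes). This was Cd8b1, a chain of the CD8 co-receptor, with 37.0 and 18.6 in CR 12 h against 552 and 354 in CR 2 h, at least 5.50-fold lower (adjusted p = 0.034). The T cell sum was 5939 to 6641 in CR 12 h against 7841 to 8732 in CR 2 h. The 4 genes of natural killer and cytotoxic T cells summed to 1192 to 1625 in CR 12 h against 2755 to 2919 in CR 2 h, with 0 calls and a median of -1.03.

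Further falls included genes of blood cells and immunity, although not all called falls were of such genes. Rac2, a GTPase of leukocytes, measured 828 and 909 in CR 12 h, against 2316 and 2669 in CR 2 h, and fell 2.86-fold (adjusted p = 0.000339). In fed lungs it measured 1487 and 1959 at 12 h and 1885 and 1651 at 2 h, and CR 12 h lay below all of these. Capg, an actin-capping protein of macrophages, fell 3.20-fold (adjusted p = 0.0126). H2-Oa, which tunes peptide loading on MHC class II, fell 3.22-fold (adjusted p = 0.013) as the 1 of 16 class II genes (6.25%, beside 0.806% of all genes). Socs1, an inhibitor of cytokine signalling, was lower by at least 3.73-fold (adjusted p = 0.0467), the 1 of 29 interferon response genes (3.45%). Hdc, the enzyme that makes histamine, fell 1.60-fold (adjusted p = 0.0439), the 1 of 4 mast cell genes, and was called in fed lungs, with 952 and 1244 at 12 h against 2387 and 1972 at 2 h. Fez1, known from neurons, was lower by at least 3.69-fold on 1 probe set (adjusted p = 0.0242) and not on another (log2 0.37, adjusted p = 0.585). How far cell numbers in the lung account for the leukocyte genes was not tested.

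Large lists of housekeeping function held 0 calls but leaned downwards. The median log2 change was -0.41 over 65 oxidative phosphorylation genes, -0.47 over 25 ribosomal protein genes and -0.49 over 43 proteasome genes, beside 0.02, 0.10 and 0.00 for the same lists in fed lungs. Both CR 12 h arrays lay below both CR 2 h arrays in 48, 20 and 31 of these genes, or 73.8%, 80.0% and 72.1%, beside 32.1% of all 5706 genes. The actin 3′ to 5′ ratio given above also separated the CR groups, and its part in these shifts was not tested. Of 9 alveolar type I cell genes 0 were called, but all 9 had a log2 change above 0 in CR, and in 6 both CR 12 h arrays lay above both CR 2 h arrays (66.7%, beside 23.4% of all genes). Their median log2 change was 0.15 in CR and larger, 0.32, in fed lungs. Other lists with 0 calls were alveolar type II cells (13 genes, median 0.04), erythroid cells (12 genes, 0.10), smooth muscle (12 genes, 0.18), heart and skeletal muscle (24 genes, 0.25), cytokines and chemokines (23 genes, -0.21), cell cycle (27 genes, -0.29) and cholesterol synthesis (14 genes, -0.35).

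**Figure D3:**
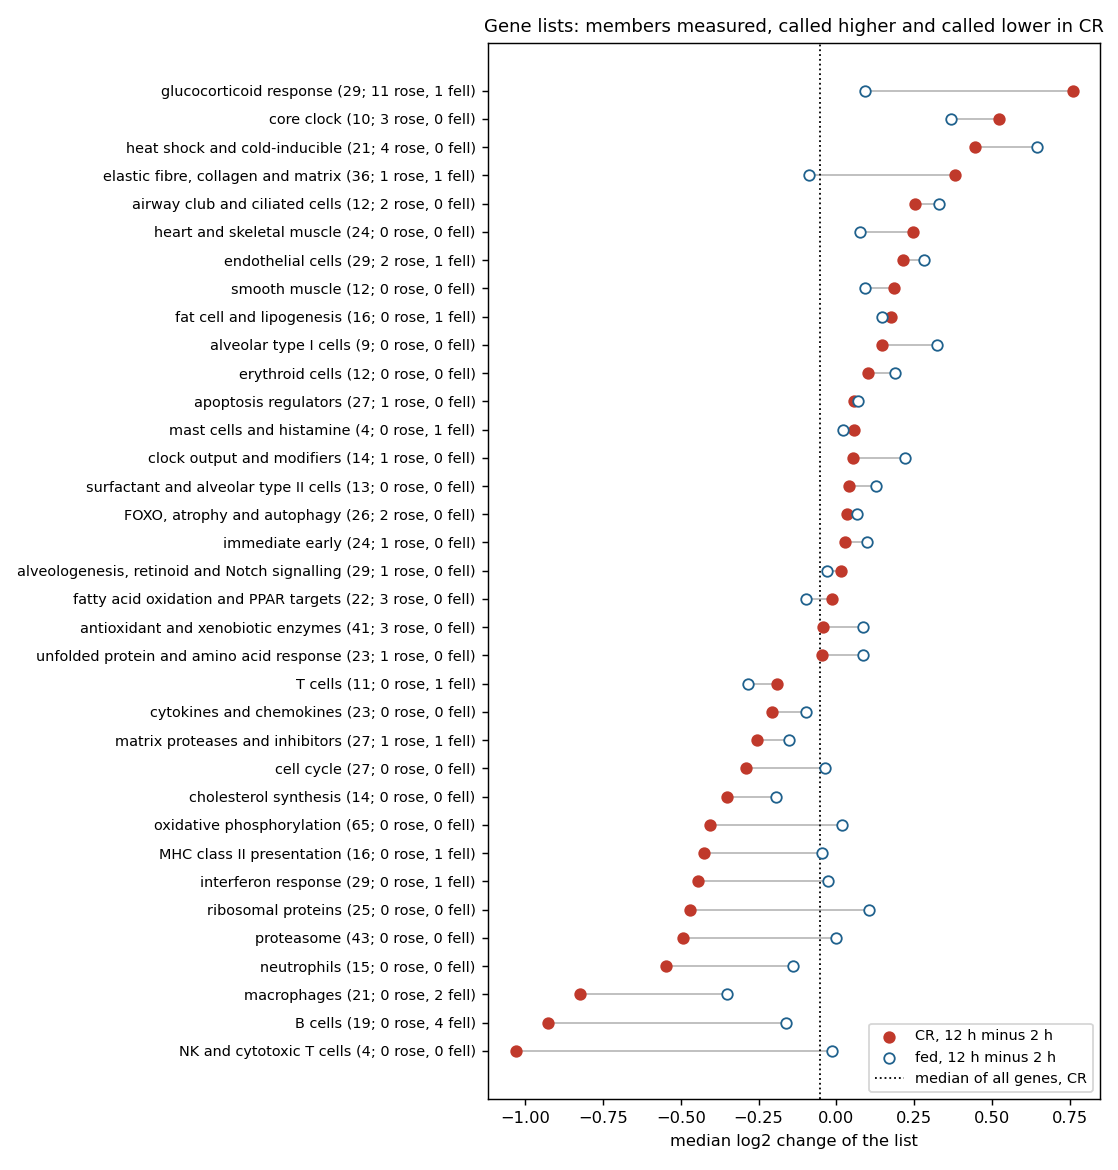
Median log2 change (12 h minus 2 h) of each gene list in CR lungs (red) and fed lungs (open blue), with the numbers measured, risen and fallen in CR beside each name and a dotted line at the CR median of all genes, -0.05. The glucocorticoid list has the highest CR median of the lists with 10 or more genes, 0.76, and the B cell and macrophage lists lie lowest among them, at -0.93 and -0.83.

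The fed pair of the same hours gave 8 calls (0.108%, 6 higher and 2 lower, with 639 at an unadjusted p under 0.05), of which 6 were among the 137: Ces1d, Pdxk, Hdc, Cry1, Dnajb1 and the probe set without a single symbol. These 2 comparisons share no array. Of the 137 probe sets called in CR, 121 (88.3%) had the same sign in fed lungs, beside 58.4% of all 7440, and 130 had the smaller change there. The 80 that rose had a median log2 change of 1.29 in CR and 0.55 in fed lungs, and the 57 that fell -1.15 in CR and -0.38 in fed lungs. Across probe sets, which are not independent, the CR and fed changes correlated at r = 0.690 among the 137 and 0.274 among all 7440. Without array a of fed 2 h 3 fed calls were made and without array b of fed 2 h 4. The probe sets were chosen by their CR change, so a smaller change in fed lungs follows in part from that choice.

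**Figure D4:**
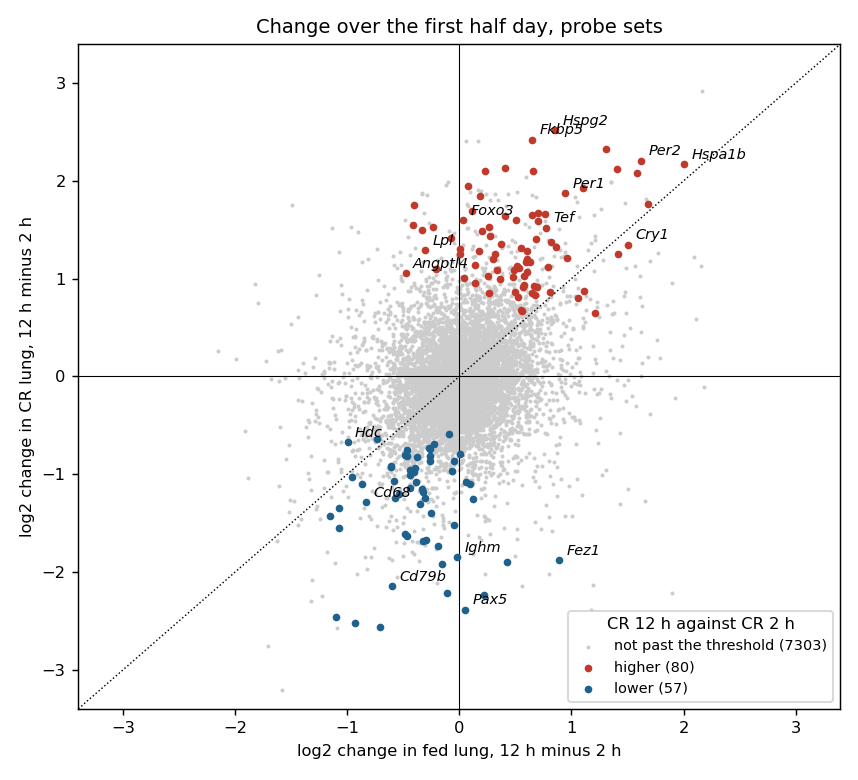
Log2 change of 7440 probe sets (12 h minus 2 h) in CR lungs (vertical) against fed lungs (horizontal), with 80 called higher in CR in red, 57 called lower in blue, the rest in grey and a dotted line where both changes are equal. Of the 137 called, 121 lie on the same side of 0 in both diets, and 130 have the smaller change in fed lungs.

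Whether a change differed between CR and fed lungs was tested as the difference of the 2 changes. With limma 0 of 7440 probe sets passed (0.0%), and 482 had an unadjusted p under 0.05. There were 7 without array a of fed 12 h, 1 without its array b and 1 without array b of CR 2 h. The differences nearest to the threshold included Pax5 (log2 -2.44, 95% interval -3.32 to -1.56, adjusted p = 0.0537) and Lpl (1.60, 1.04 to 2.15, adjusted p = 0.0537). For Hspa1b the difference was 0.16, with an interval of -1.10 to 1.42. With the fed 0 h numbers as separate groups, 42 passed (0.565%), among them Fkbp5, Lpl, Angptl4 and Pax5 (each adjusted p = 0.00568) and Foxo3 (adjusted p = 0.00634). Of those 42, 15 were among the 137. The fed 2 h arrays are of the lower signal range, so fed 0 h number 1, of the same range as the CR arrays, served as another start. That start needs the fit with the fed 0 h numbers as separate groups, in which fed 12 h against fed 2 h gave 102 calls. In the same fit, between fed 12 h and that start 2304 probe sets (31.0%) were called, or 1221 without array a of fed 12 h. Against this larger fed change, 74 differences passed (0.995%), 25 higher and 49 lower in CR, with 1185 at an unadjusted p under 0.05. They included Ddit4, Angptl4, Cd68, Dbp, Ighm and Pax5, and 15 of the 74 were among the 137. Both tests of differences share the CR and fed 12 h arrays. The 74 became 40 without array a of CR 12 h, 41 without b, 43 without array a of CR 2 h, 27 without b, 39 without array a of fed 12 h, 115 without b, and 43 without array b of fed 0 h.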

How the data were processed

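RNA of mouse lung had been hybridized to 24 arrays. The values deposited by the authors were linear intensities per probe set, already scaled per array. Their software was not given in the sources used here. Per the submitters' processing notes, MAS5 made 1 more array, of another platform and with contradictory labels, which was not analysed here.

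Arrays were scaled to the median of their medians, values below the 25th percentile of all (80.4) were raised to it, and log2 was taken. After 66 control probe sets were left out, 7440 of 12422 reached their array's median on at least 2 arrays and were tested. The annotation gave 1 gene symbol for 10833 of the 12422, several for 396 and none for 1193. Of those with 1 symbol 10817 matched the GRCm38.p6 gene table, and 6725 were tested, for 5706 genes. Means of 11 groups were fitted to all 24 arrays in limma 3.58.1 (R 4.3.3; lmFit; eBayes, trended on intensity; 13 residual degrees of freedom, 12 where the fed 0 h numbers were separate), with two-sided tests and Benjamini-Hochberg adjustment. Intervals cover 95%. Tables were made with pandas 2.3.3 in Python 3.11.15. The pipeline was tested on simulated data.

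The 35 gene lists, with 1 probe set per gene, the brightest, and the comparison itself were chosen with earlier results of these data known. Named were the 12 largest rises and falls, up to 4 called genes per list by p, all clock genes measured, and up to 8 genes whose CR and fed changes differed in both tests. Rgs2, Gadd45g, Dnajb1, Cebpd, Nfkbia, Mt1, Zbtb16, Sgk1, Cirbp, Cd79a, Ms4a1, S100a8, S100a9, Rac2 and Pdxk were named after their values were seen where the rule did not reach them. The letters a and b are not stated to pair arrays, and their deviations from the group means correlated at 0.029 between CR 12 h and CR 2 h, so they were not used as a block. Alternatives covered normalization, floor, filter, spread model, the arrays in the fit and each array left out. With 2 arrays in a group, their number limits precision.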

Additional observations from a re-analysis of the deposited data

Results flagged for a closer look

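A test of the difference between the CR change and the fed change (12 h minus 2 h, fed 0 h numbers as separate groups) passed for 42 probe sets with limma, 10 of them of genes named above. The CR change exceeded the fed change by a log2 value of 1.77 for Fkbp5, 1.57 for Foxo3, 1.16 for Ddit4, 1.30 for Notch1, 1.60 for Lpl and 1.54 for Angptl4 (adjusted p = 0.00568, 0.00634, 0.0387, 0.0352, 0.00568 and 0.00568). It lay below the fed change by -1.83 for Ighm, -2.77 for Fez1, -2.46 for Igkv6-14 and -2.44 for Pax5 (adjusted p = 0.00673, 0.0401, 0.0401 and 0.00568). Fez1 and Igkv6-14 had CR 12 h arrays under the floor, so their differences are of floored values and not exact. In the planned fit with 11 groups none of these 10 differences passed.

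With fed 0 h number 1 as the start of the fed change, 74 such differences passed, 6 of them of genes named above. Those 6 were 1.42 for Ddit4, 1.07 for Angptl4, -1.18 for Cd68, -2.70 for Dbp, -1.77 for Ighm and -2.41 for Pax5 (adjusted p = 0.00619, 0.0362, 0.0283, 0.0226, 0.00619 and 0.00255). Dbp had opposite signs in the 2 diets, with -1.42 in CR (12 h minus 2 h) and 1.29 in fed lungs (12 h minus 0 h number 1). These intervals start at unlike hours, and between 2 h and 12 h the fed log2 change of Dbp was 0.16. What the unlike start adds to these differences was not tested. Both sets of tests use the same CR and fed 12 h arrays.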

How the results depend on the processing

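The 137 probe sets called between CR 12 h and CR 2 h became 531 with array weights (239 higher, 292 lower), 425 with only the 4 arrays compared (182 and 243), 597 with only the 14 CR arrays (270 and 327), 489 with only the 12 arrays of the high signal range (212 and 277) and 781 with the fed 0 h numbers as separate groups. With a and b averaged 0 were called, 129 at an unadjusted p under 0.05, and leaving out 1 array gave 10 to 55. The other settings gave 100 to 158. The 8 fed calls became 23 with no filter, 30 with array weights, 102 with separate fed 0 h numbers, 2000 with the signal range as a block, and 3 to 8 without 1 array. The 0 differences of the changes became 2 with quantile normalization, 19 with no filter, 3 with a stricter filter, 12 with array weights, 168 with the signal range as a block, 42 with separate fed 0 h numbers, and 0 to 7 without 1 array. Against fed 0 h number 1, the 74 differences became 146 with no filter, 42 with array weights and 27 to 115 without 1 array, and the 2304 fed calls 1221 to 2141. Among 77 named probe sets, 53 of them called, 0 reversed under any setting, and 17 sign changes, in 8 genes, concerned values called in neither setting. Why the counts moved was not tested, except that separate fed 0 h numbers take the difference between those pairs out of the spread.

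The letter as a replicate block gave 100 calls (60 higher, 40 lower) between CR 12 h and CR 2 h, 99 of them among the 137, ended 14 of the 53 named calls, and gave 8, 0, 2299 and 72 in the other 4 comparisons. Arrays a and b share only a letter. Values near the floor bound folds only, and 2 arrays a group limit every estimate.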
